A study of Mus musculus with 6 samples.

Results

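The transcripts described here are those of 9 genes that mark B cells, measured in cultures of CD4 T cells that had been grown with splenocytes. The genes are Ighm, Cd79a, Cd79b, Ms4a1, Pax5, Ebf1, Cd72, Cr2 and Fcer2a, of 18193 genes measured in all. They were chosen by name as B cell markers, and every probe set annotated to 1 of them alone was taken, which gave 26 of 45037 probe sets. The arrays were 3 of SAP-deficient and 3 of wild-type (WT) cells, and the T cells of both genotypes carried the OT-II transgene, a T cell receptor specific for an ovalbumin peptide. SAP, encoded by Sh2d1a, is a small adaptor protein that binds the tails of SLAM-family receptors. Naive T cells were sorted from spleen and lymph nodes and grown for 3.5 days with the peptide, with IL-6 (100 ng/ml) and IL-21 (50 ng/ml), and with blocking antibodies to TGF-β (20 µg/ml), IL-4 (10 µg/ml), IL-12 and IFN-γ. Such a mixture favours cells like follicular helper T (Tfh) cells, which help B cells make antibody. The splenocytes, from which T cells had been removed, presented the peptide; mitomycin C kept them from dividing. Both genotypes received such splenocytes, so there is no culture without them to set the values against. The labels give neither the mice the splenocytes came from nor the kind of Sh2d1a mutation, the age or sex of the mice, or whether each array had a culture of its own. P-values therefore rest on the spread among these 6 arrays alone, and some of that spread may be technical.

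B cells are the most abundant lymphocytes of the mouse spleen. A mature B cell carries an antigen receptor made of a membrane immunoglobulin, which binds antigen, and of the paired chains Ig-alpha and Ig-beta, which pass the signal inward. The transcription factors Ebf1 and Pax5 set up and hold the B cell programme. CD20, CD72, the complement receptors and the low-affinity IgE receptor CD23 are surface proteins of mature B cells, and several of them tune how strongly the antigen receptor responds. In a bulk RNA sample, fewer cells of a type and less RNA per cell cannot be told apart.

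The values are log2 expression levels, 1 per probe set and array. T cell identity genes were high on every array: the mean of 12 such genes lay between 11.46 and 11.80 on SAP-deficient and between 11.49 and 11.79 on WT arrays. Cd4 itself was at 9.85, 9.44 and 9.63 on SAP-deficient arrays, against 9.87, 9.50 and 9.49 on WT arrays. Sh2d1a was at 4.83 ± 0.69 in SAP-deficient and 9.14 ± 0.53 in WT cells (SD, n = 3 each), a change of -4.31 (95% interval -5.20 to -3.42; adjusted p = 0.107 over genes, limma). With the matched pairs described next as a block, its adjusted p was 9.88e-07. Each SAP-deficient array had 1 WT array that it resembled most, and the pairs so found in the data joined arrays of equal replicate number. Within the 3 pairs, deviations from the mean of each genotype correlated at 0.54, 0.73 and 0.60 over probe sets not used for the matching, against at most -0.11 for other arrays of opposite genotype. The labels state no pairing, so values within these matched pairs are given as descriptions, beside the comparison of all arrays.

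To judge which markers stood above background, olfactory receptor genes were taken as genes that lymphoid cells leave silent. The 95th percentile of their 44 probe sets, found on each array, ran from 5.34 to 5.59 and is called the background mark below. It is a rough mark, because probe sets differ in how brightly they read the same amount of RNA. By this mark 5 of the 9 genes lay above background on all 6 arrays: Ighm, Cd79a, Cd79b, Ebf1 and Cd72. Ms4a1 and Cr2 each did so on 1 array, and Pax5 and Fcer2a on none. Of all 45037 probe sets, 50.6% lay above the mark on all arrays, and of the 26 B cell probe sets 12 did, 4 did on some arrays and 10 on none. A higher mark was the 95th percentile of 42 vomeronasal and taste receptor probe sets (5.98 to 6.26). Above it on every array were only Ighm and Ebf1 of the 9 genes, and 40.7% of all probe sets. Each gene is judged by its brightest probe set, and the share over all genes judged so was not computed.

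**Figure D1:**
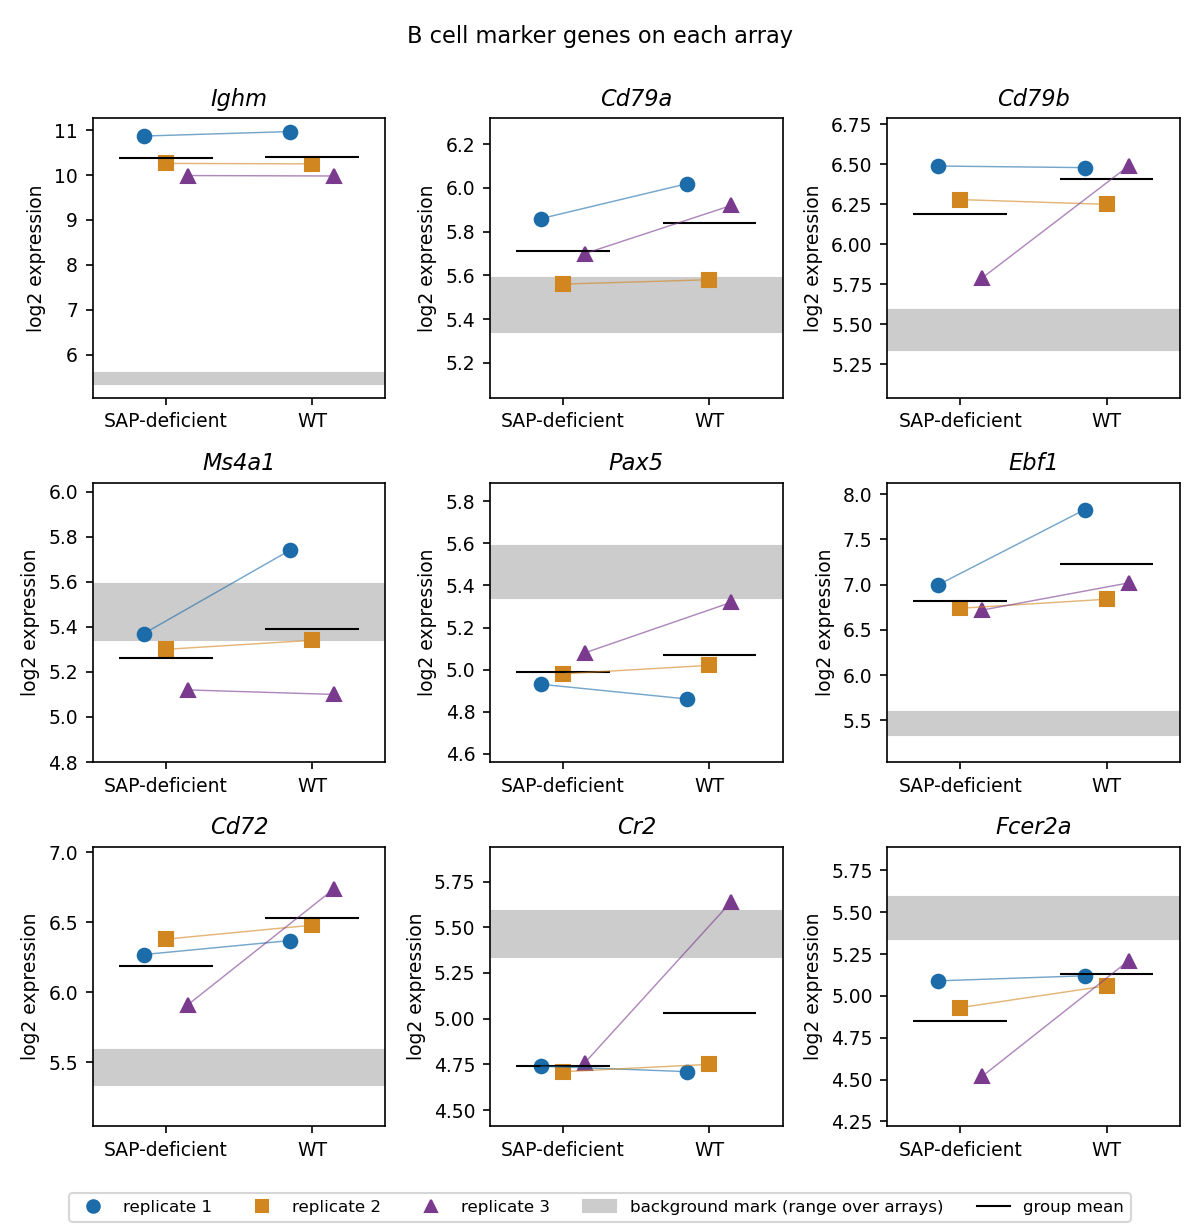
Log2 expression (vertical axes, each with its own scale) of the 9 B cell marker genes on the 3 SAP-deficient and the 3 WT arrays, by the probe set with the highest mean; symbols mark the replicate, thin lines join the arrays of a matched pair, black bars are group means and the grey band is the range of the background mark, 5.34 to 5.59. Ighm lies far above the band, Pax5 and Fcer2a lie under it, and the lines of replicate 3 are steepest for Cd79b, Cd72, Cr2 and Fcer2a.

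Ighm, the constant region of the IgM heavy chain, gave a strong signal that followed the matched pairs and not the genotype. Its brightest probe set was at 10.87, 10.26 and 9.99 on SAP-deficient arrays 1 to 3, against 10.97, 10.25 and 9.98 on WT arrays 1 to 3. Both genotypes thus had their highest value in replicate 1 and their lowest in replicate 3, and the groups overlapped fully. The change was -0.02 (95% interval -0.72 to 0.67), and the differences within the pairs were -0.09, 0.01 and 0.01. Of the variance of this probe set over the 6 arrays, 99.5% lay between the matched pairs and 0.0827% between the genotypes. The pairs were found by likeness over probe sets of all kinds, and genes outside the B cell list followed them too. Thy1, a T cell identity gene, was at 12.45, 11.80 and 12.21 on SAP-deficient arrays, against 12.43, 11.77 and 12.21 on WT arrays.

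The 11 probe sets annotated to Ighm alone did not behave alike. A second bright one was at 9.42, 8.84 and 8.65 in SAP-deficient cells, against 9.47, 8.88 and 8.67 in WT cells, so it repeated the order of the first. The other 9 had means between 4.07 and 7.24 and changes between -0.12 and 0.12. Immunoglobulin probe sets can be designed from rearranged clones, and which of them read the constant region cannot be told from the annotation used here. Counting all 11, 5 were above the background mark on all arrays, 2 on some and 4 on none. Another 4 probe sets are annotated to Ighm together with other immunoglobulin genes. They were left out, and no value of theirs exceeded 5.24.

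**Figure D2:**
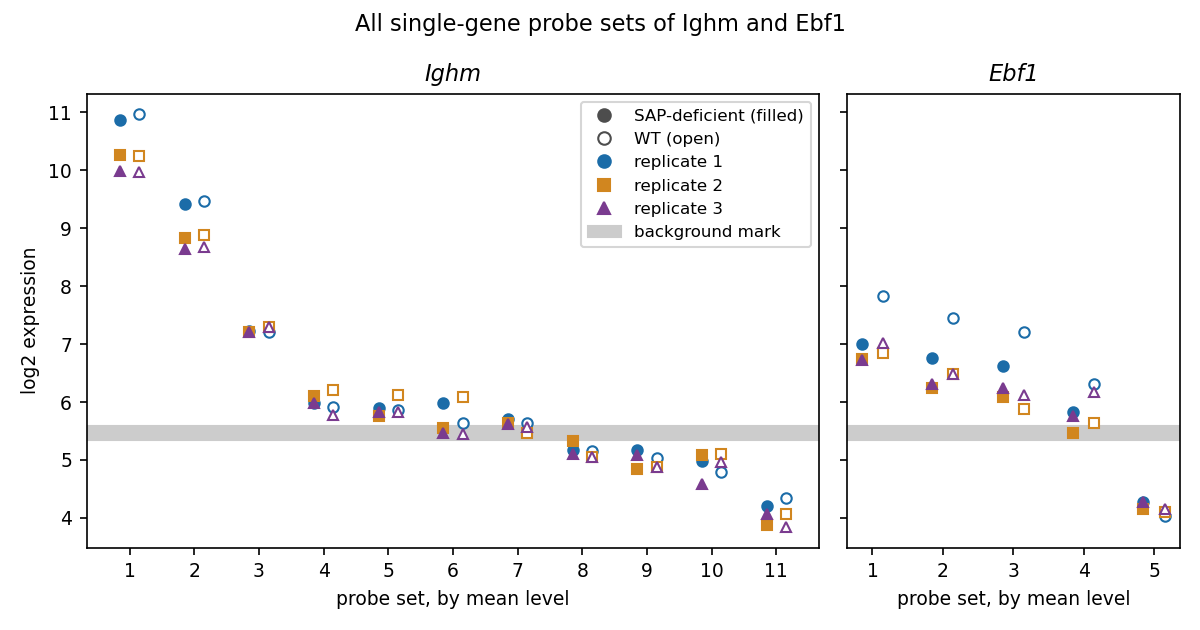
Log2 expression (vertical axis) of the 11 probe sets of Ighm (left) and the 5 of Ebf1 (right), ordered by mean level along the horizontal axis, on SAP-deficient (filled) and WT (open) arrays; symbols mark the replicate and the grey band is the background mark. The first 2 Ighm probe sets separate by replicate and not by genotype, and WT replicate 1 is the highest array on the first 4 Ebf1 probe sets.

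Cd79a and Cd79b encode Ig-alpha and Ig-beta, the signalling chains of the antigen receptor, and each is measured by 1 probe set. Cd79a was at 5.86, 5.56 and 5.70 on SAP-deficient arrays, against 6.02, 5.58 and 5.92 on WT arrays. These values were only slightly above the background mark, and the groups overlapped. The change of Cd79a was -0.13 (-0.47 to 0.21), and when single arrays were left out it ran from -0.26 without WT replicate 2 to -0.04 without WT replicate 1. Cd79b was at 6.49, 6.28 and 5.79 on SAP-deficient arrays, against 6.48, 6.25 and 6.49 on WT arrays. SAP-deficient replicate 3 was the lowest of the 6, and the other 5 arrays lay close together. The change was -0.22 (-0.66 to 0.22), with 0.02, 0.03 and -0.70 within the pairs, and without SAP-deficient replicate 3 it was -0.02.

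Ebf1, the transcription factor that specifies the B lineage, had the largest change of the 9 genes, and it rested mainly on pair 1. Its brightest probe set was at 7.0, 6.74 and 6.72 on SAP-deficient arrays, against 7.83, 6.84 and 7.02 on WT arrays. WT replicate 1 stood above all others, and the remaining WT arrays lay among or beside the SAP-deficient ones. The change was -0.42 ± 0.25 (SE; 95% interval -1.01 to 0.18; adjusted p = 1.00, limma), and the differences within the pairs were -0.83, -0.11 and -0.31. Without WT replicate 1 the change was -0.12. Of its 5 probe sets, 4 lay above the background mark on all arrays and had changes of -0.42, -0.37, -0.09 and -0.36. In pair 1 these 4 differed by -0.83, -0.69, -0.59 and -0.50. The fifth, under the mark on all arrays, had a change of 0.14. With the matched pairs as a block, the brightest probe set had an unadjusted p of 0.0131 and an adjusted p of 0.685 over genes. Ebf1 is also expressed by stromal and fat cells.

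Pax5, the factor that maintains B cell identity, showed no level above the background mark. It was at 4.93, 4.98 and 5.08 on SAP-deficient arrays, against 4.86, 5.02 and 5.32 on WT arrays, with a change of -0.07 (-0.38 to 0.24). A second Pax5 probe set had a lower mean, 4.82, and was likewise under the mark on every array. Values under the mark cannot be told apart from unspecific signal.

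Ms4a1 encodes CD20, a membrane protein of B cells. Its brighter probe set was at 5.37, 5.30 and 5.12 on SAP-deficient arrays, against 5.74, 5.34 and 5.10 on WT arrays. Both genotypes ran in the order of replicates 1, 2 and 3, as Ighm did. Only WT replicate 1 passed the mark, however, so the order of the other values cannot be told apart from unspecific signal. The change was -0.13 (-0.53 to 0.27), with -0.37, -0.04 and 0.03 within the pairs. The second Ms4a1 probe set had a mean of 3.34 and a change of -0.12. Its SAP-deficient values, 3.31, 3.33 and 3.20, did not repeat that order.

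Cd72, an inhibitory receptor of B cells that binds semaphorin 4D, differed mostly in pair 3. It was at 6.27, 6.38 and 5.91 on SAP-deficient arrays, against 6.37, 6.48 and 6.74 on WT arrays. SAP-deficient replicate 3 was the lowest array and WT replicate 3 the highest, while the genotypes interleaved among the other 4. The change was -0.35 ± 0.16 (SE; 95% interval -0.73 to 0.03; adjusted p = 1.00, limma), and within the pairs -0.11, -0.10 and -0.84. Among the 9 genes this was the smallest unadjusted p, 0.0674. With the pairs as a block it was 0.0431, or 0.740 after adjustment over genes. Without pair 3 the blocked change was -0.10.

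Cr2, which in the mouse encodes the complement receptors CD21 and CD35, was at 4.74, 4.71 and 4.76 on SAP-deficient arrays. On WT arrays it was at 4.71, 4.75 and 5.64. Thus 5 arrays were nearly equal and under the mark, and WT replicate 3 alone stood just above it. The change of -0.29 (-0.84 to 0.26) came from that array, and without it was 0.01. Fcer2a encodes CD23, the low-affinity IgE receptor of follicular B cells, and its brighter probe set was at 5.09, 4.93 and 4.52 on SAP-deficient arrays, against 5.12, 5.06 and 5.21 on WT arrays. SAP-deficient replicate 3 was again the lowest, and every value was under the mark. The change was -0.28 (-0.64 to 0.07), with -0.03, -0.13 and -0.70 within the pairs. Of the 26 probe sets, 2 had groups that did not overlap, as did 5.32% of all genes by their brightest probe set. The fifth Ebf1 probe set, higher in SAP-deficient cells, was 1 of them. The other was a second, dimmer Fcer2a probe set, under the mark on every array, with a change of -0.29. It was the only one of the 26 with an unadjusted p under 0.05 in the comparison of all arrays (0.0421; adjusted p = 1.00, limma), as against 1.64% of all probe sets.

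Across the list, all 9 B cell markers had a mean below that of WT in SAP-deficient cells, but none was called. Among all 18193 genes 46.7% had a change under 0, and the median change was -0.22 for the 9 genes and 0.01 for all genes. At an adjusted p under 0.05, limma called 0 of the 9 and 0 of all genes (0.0%). At an unadjusted p under 0.05 it found 0 of the 9, against 266 of all genes (1.46%). The groups overlapped for each of the 9 genes by its brightest probe set, as they did for all but 5.32% of genes. The members were chosen with earlier results of these data known, among them a lower level of B cell genes, so their shared direction is no independent evidence. With the matched pairs as a block, 0 of the 9 were called, as against 0.0055% of all genes, which is Sh2d1a alone, and 2 had an unadjusted p under 0.05, Ebf1 and Cd72, both lower; of all genes 2.84% were lower at that p.

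**Figure D3:**
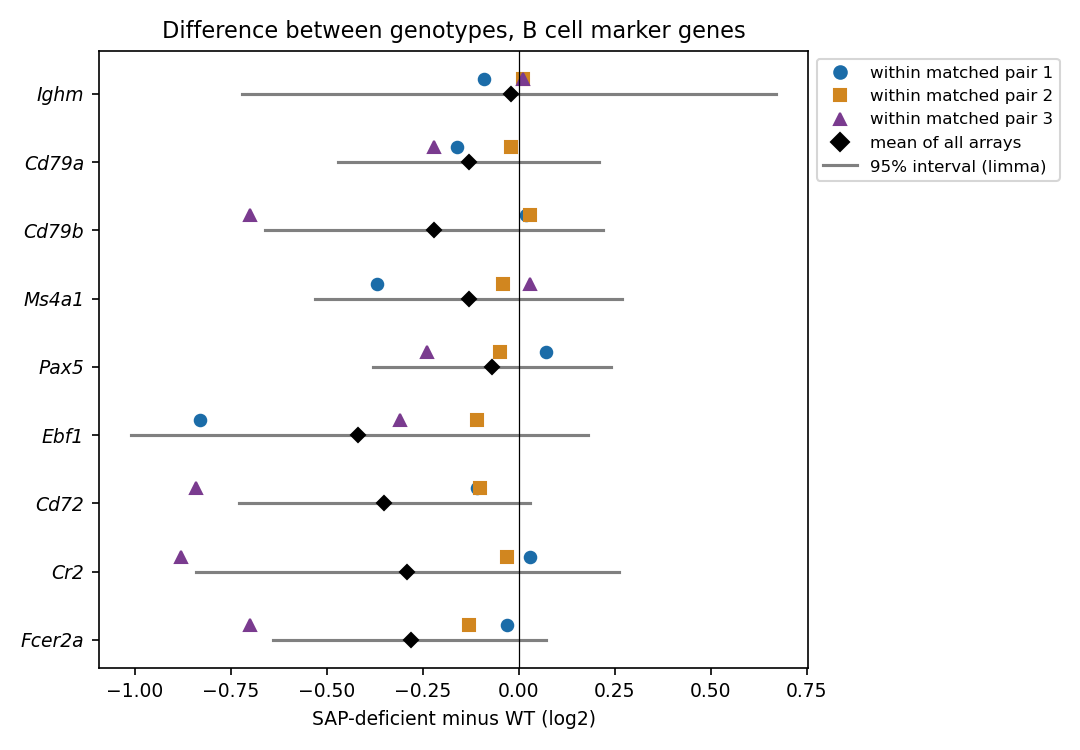
SAP-deficient minus WT difference (horizontal axis, log2) of the 9 B cell marker genes, as the mean over all arrays with its 95% interval (diamond and bar, limma) and within each matched pair (coloured symbols). Every interval includes 0; pair 1 lies farthest left for Ebf1 at -0.83, and pair 3 for Cd72, Cr2, Cd79b and Fcer2a at -0.84, -0.88, -0.70 and -0.70.

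The 9 genes did not share 1 pattern across the arrays. By a difference of at least 0.5 log2 units, SAP-deficient was below WT for 4 of the 9 genes in pair 3 (Cd79b, Cd72, Cr2 and Fcer2a), 1 in pair 1 (Ebf1) and 0 in pair 2. Over all genes these shares were 1.75%, 0.709% and 0.275%. Of the 4 genes in pair 3, Fcer2a was under the background mark on all arrays and Cr2 above it on WT replicate 3 alone, so only Cd79b and Cd72 had both values of that pair above the mark. Of the 9, 4 were lower in all 3 pairs (Cd79a, Ebf1, Cd72 and Fcer2a), against 13.1% of all genes. Over the 6 arrays, and among the 5 genes above the mark on all of them, Ebf1 correlated at 0.81 with Cd79a, 0.71 with Ighm, 0.55 with Cd79b and 0.22 with Cd72. Cd72 correlated at 0.76 with Cd79b, 0.22 with Cd79a and -0.06 with Ighm. The other 3 pairs of these genes, among Ighm, Cd79a and Cd79b, correlated at 0.52, 0.56 and 0.55. Each of these is a description over 6 arrays that resemble each other in pairs.

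Promoters of 3 of the 4 genes that differed in pair 3 are shown because they were lower together there, and that of Cd79a because it belongs to the antigen receptor and was above the mark on all arrays. Of these 3, only Cd72 had both values of that pair above the mark. Whether the genes are regulated together was not tested. RefSeq promoter windows (GRCm38.p6) were found for 6 of the 9 genes, named Cd79a, Pax5, Ebf1, Cd72, Cr2 and Fcer2a. Each line gives the 250 bases before an annotated start, 5′ to 3′ on the strand of the gene; Fcer2a has 3 annotated starts, of which the most upstream was taken. Capitals mark matches to 4 motifs searched on both strands, none of which overlap in these windows.
Cd79a (chr7:24897247-24897496, plus strand): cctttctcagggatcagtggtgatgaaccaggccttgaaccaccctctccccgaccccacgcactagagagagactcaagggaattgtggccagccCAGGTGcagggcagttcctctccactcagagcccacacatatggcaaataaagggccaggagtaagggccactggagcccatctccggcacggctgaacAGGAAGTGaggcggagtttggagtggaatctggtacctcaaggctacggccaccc
Cd72 (chr4:43454627-43454876, minus strand): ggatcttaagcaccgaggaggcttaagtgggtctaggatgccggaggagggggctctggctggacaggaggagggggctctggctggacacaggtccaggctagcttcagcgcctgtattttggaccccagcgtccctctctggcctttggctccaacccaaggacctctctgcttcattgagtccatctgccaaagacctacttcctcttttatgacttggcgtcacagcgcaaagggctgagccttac
Cr2 (chr1:195176720-195176969, minus strand): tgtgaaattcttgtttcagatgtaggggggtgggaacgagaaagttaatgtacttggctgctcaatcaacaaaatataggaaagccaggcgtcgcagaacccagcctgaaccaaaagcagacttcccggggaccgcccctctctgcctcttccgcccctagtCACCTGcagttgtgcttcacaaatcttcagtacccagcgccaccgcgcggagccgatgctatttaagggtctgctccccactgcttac
Fcer2a (chr8:3694175-3694424, minus strand): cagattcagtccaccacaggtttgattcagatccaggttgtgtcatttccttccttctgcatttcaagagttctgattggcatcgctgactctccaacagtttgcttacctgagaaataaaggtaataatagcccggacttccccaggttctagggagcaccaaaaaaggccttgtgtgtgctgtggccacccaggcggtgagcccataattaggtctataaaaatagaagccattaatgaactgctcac

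The motifs were CCCNNGGG, the core bound by EBF factors, which reads the same on both strands, the octamer ATGCAAAT of Oct factors, AGGAAGTG of ETS factors and the E-box CAGGTG. In the Cd79a window the E-box lay 154 to 149 and the ETS motif 55 to 48 bases before the start, and in the Cr2 window the E-box lay 88 to 83 bases before it. Neither the Cd72 window nor the Fcer2a window shown held any of the 4. At another annotated start of Fcer2a (chr8:3690862-3691111, minus strand) the E-box lay 244 to 239 and 99 to 94 bases before the start. Of all 32851 windows of this length, 11.8% hold the EBF core, 1.6% the octamer, 3.14% the ETS motif and 17.2% the E-box. A match is a description of these letters, and the motifs were chosen after the values were known. Only exact matches were marked, so a window without capitals for a factor may still hold a site that departs from these letters.

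Further genes of the B cell programme, taken as 1 list, had no common direction. Genes of the list that T cells also express were not set apart. Of 30 further genes listed for the B cell programme, 25 were measured, of which 12 were lower and 13 higher in SAP-deficient cells, with a median change of 0.01. Above the background mark, each by its brightest probe set, were 16 on all arrays, 2 on none and the rest on some. Of all probe sets, dim ones included, 50.6% were above it on all arrays, so the shares are not alike. None was called, and 1, the Fc receptor-like gene Fcrla, had an unadjusted p under 0.05. Fcrla also had the highest change of the list, 0.25, but lay under the background mark on all arrays. The lowest change was that of Ly86, which encodes the MD-1 partner of the receptor CD180. Ly86 was at 5.70, 6.18 and 4.65 on SAP-deficient arrays, against 5.88, 6.15 and 5.54 on WT arrays, a change of -0.35 with -0.89 in pair 3. Both values of pair 3 were under the background mark of their arrays, 5.47 on SAP-deficient and 5.59 on WT replicate 3. That difference therefore cannot be told apart from unspecific signal.

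The 3 genes of this list with the highest means are also used by T cells. Pou2af1, the coactivator of Oct factors, was at 10.98, 10.98 and 11.19 on SAP-deficient arrays, against 10.95, 10.97 and 11.18 on WT arrays, so the matched arrays were nearly equal. The transcription factor gene Irf8 had a change of 0.22 (unadjusted p 0.154; with the block 0.00913, or 0.685 adjusted) and the tetraspanin gene Cd37 one of -0.07. In pair 3 the mean difference was -0.06 over the 25 genes, against -0.43 over the 9 markers. Whether the lists differ was not tested.

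MHC class II genes, which B cells and other presenting cells of the splenocytes express, had mean differences of -0.05, -0.06 and -0.47 in pairs 1 to 3. Of 9 measured, 8 were lower in SAP-deficient cells, with a median change of -0.26 and 0 called. By their brightest probe sets, 7 were above the background mark on all arrays, against 50.6% of all probe sets, dim ones included. The other 2, H2-Ob and Ciita, were under it on all arrays, and the median is the change of Ciita. Cd74, the invariant chain and brightest of the MHC class II genes, was at 10.15, 10.07 and 9.65 on SAP-deficient arrays, against 10.18, 10.16 and 10.04 on WT arrays. Cell-cycle genes lay the other way in pair 3: their mean over 7 genes was 10.29 on SAP-deficient and 9.61 on WT replicate 3, and lay between 10.17 and 10.34 on the other 4 arrays, with the replication gene Mcm5, the brightest, at 11.57 on SAP-deficient and 11.21 on WT replicate 3. Mean levels of 11 macrophage and dendritic cell genes ran from 5.98 to 6.29 on SAP-deficient and from 6.12 to 6.27 on WT arrays. By their brightest probe sets, 8 of these 11 were above the background mark on all arrays and 3 on none (Adgre1, Itgam and Mertk). The 50.6% of all probe sets includes dim ones, so these shares are not alike. The brightest, Batf3, was at 8.2, 8.59 and 8.17 on SAP-deficient arrays, against 8.38, 8.55 and 8.17 on WT arrays. The pair 3 difference of the list was -0.04. The T cell identity list differed by 0.01, -0.03 and 0.01 within pairs 1 to 3, and its brightest gene, Cd3d, was at 13.03, 12.87 and 13.01 on SAP-deficient arrays, against 12.91, 12.78 and 12.97 on WT arrays. The part of these other cells and of proliferation in the differences of the B cell markers was not tested.

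**Figure D4:**
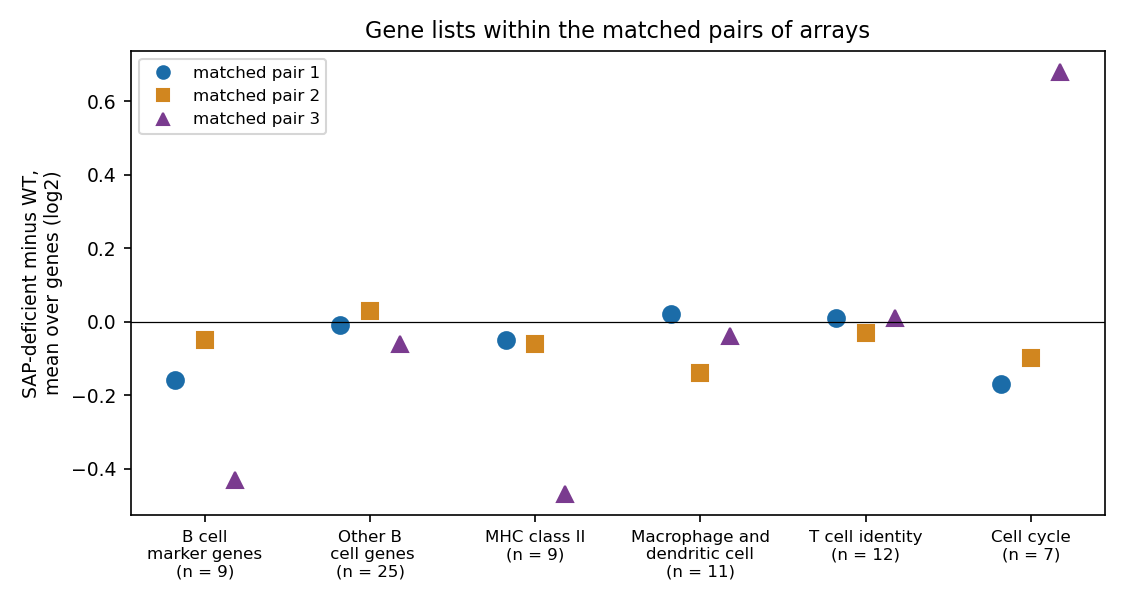
Mean SAP-deficient minus WT difference over the genes of each list (vertical axis, log2) within matched pairs 1, 2 and 3 (symbols); n is the number of genes measured. Pair 3 lies at -0.43 for the B cell markers, -0.47 for MHC class II, 0.68 for cell-cycle genes and 0.01 for T cell identity genes.

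The genes whose levels over the 6 arrays were most like those of the B cell markers were sought among 3855 genes above the background mark with a range of at least 0.5. The pattern was the mean of the 5 markers above the mark, each centred on its own mean: 0.13, -0.12 and -0.35 on SAP-deficient arrays, against 0.37, -0.09 and 0.06 on WT arrays. The highest Pearson correlations belonged to Serpinb2 (0.981), a protease inhibitor gene, Kbtbd7 (0.965), Rtl8c (0.961), Mzb1 (0.954), an endoplasmic reticulum protein gene of antibody-secreting cells, and Prf1 (0.954), which encodes perforin. With 6 arrays, 27 genes exceeded a correlation of 0.9. Mzb1 was at 7.0, 6.56 and 6.39 on SAP-deficient arrays, against 7.02, 6.67 and 6.78 on WT arrays.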

How the data were processed

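RNA of 3 SAP-deficient and 3 WT samples (500 ng each, per the labels' protocols) was hybridised to Affymetrix mouse whole-genome arrays. The deposited values are log2 expression levels made by the authors with Affymetrix Expression Console and RMA, per the submitters' processing notes; their versions were not given in the sources used here. Values were thus background corrected, equalised in distribution and summarised by probe set before deposit. RMA compresses differences of dim probe sets. Array medians ran from 5.73 to 5.76. The number of arrays limits the precision.

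From 45101 probe sets 64 controls were left out. The platform annotation gave 1 gene for 34945, several for 932 and none for 9160; symbols of 34741 were updated through RefSeq. The brightest single-gene probe set, by mean over the arrays, stands for each gene. SAP-deficient minus WT was fitted on genotype alone with limma 3.58.1 (R 4.3.3; lmFit, eBayes with an intensity trend), in 1 fit over 45037 probe sets and 1 over 18193 genes, each Benjamini-Hochberg adjusted at 0.05; values of genes come from the second, and values of further probe sets from the first. The fit was tested on simulated data in which the arrays vary independently. That test does not cover the likeness within matched pairs. Matched pairs were found from alternate probe sets and checked on the rest. The genes and lists were chosen with earlier results of these data known. Named were the 9 markers, Sh2d1a, from the other B cell list those with an unadjusted p under 0.05, the 3 highest means and the highest and lowest change, the 5 genes most like the markers, and the brightest gene of the other lists. Cd4, Thy1, Adgre1, Itgam and Mertk were named outside this rule, after their values were seen. Some genes of the other B cell list are not reported here.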

Additional observations from a re-analysis of the deposited data

How the results depend on the processing

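The median change of the 9 B cell markers was -0.22 and stayed below 0 in all 17 alternatives tried, some of which could not move it. It ran from -0.30 to -0.12 when single arrays were left out, and was -0.15 with array weights and -0.24 after a second quantile normalization. With the matched pairs as a replicate block it was -0.22, and -0.21, -0.34 and -0.08 without pairs 1, 2 and 3, alternatives chosen after seeing the data. No marker was called under any alternative. Of 149 single-gene results under alternatives, 140 kept their direction and 9 reversed, and no reversed value had been called. Some of the 140 could not reverse. The block of all matched pairs, and eBayes without the trend or with robust variance, leave each change as it is in this balanced design. They could alter p-values only. The filter on dim probe sets likewise leaves the change of a gene as it is. When single arrays were left out, Ighm ran from -0.27 to 0.26, Ms4a1 from -0.28 to 0.05, Pax5 from -0.18 to 0.05 and Cr2 from -0.45 to 0.01. Below 0 throughout were Cd79a (-0.26 to -0.04), Cd79b (-0.37 to -0.02), Ebf1 (-0.61 to -0.12), Cd72 (-0.45 to -0.21) and Fcer2a (-0.41 to -0.12). In the block, Ighm was at 0.01 without pair 1, and Cd79b at 0.02 and Pax5 at 0.01 without pair 3. The other B cell genes had a median of 0.01, from -0.09 to 0.02 when single arrays were left out, and the block changed no call. The number of markers above background on all arrays was 5, with the 99th percentile of olfactory receptors or the median of all probe sets 4 (Cd79a no longer), and with vomeronasal and taste receptors 2; a higher mark is the cause by construction. It was 5 without any single array. Of all probe sets, 47.3% passed the 99th percentile, 46.1% the median and 40.7% the vomeronasal and taste receptor mark on all arrays. Signals near background limit what can be said of Ms4a1, Pax5, Cr2 and Fcer2a, and the filter on dim probe sets left 5 markers to test.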

Other observations

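The joining chain gene Jchain, chosen here after its values were seen, also followed the matched pairs. It was at 6.93, 6.0 and 5.44 on SAP-deficient arrays, against 6.93, 5.61 and 5.30 on WT arrays, the same order of replicates as for Ighm. Its differences within the pairs were -0.01, 0.39 and 0.15. Both replicate 3 values of Jchain were under the background mark of their arrays, 5.47 on SAP-deficient and 5.59 on WT replicate 3.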
